A study of Arabidopsis thaliana with 28 samples.

Results

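Expression of 4 enzymes of plastid pigment and cofactor synthesis was examined, 1 for each of 4 branches: HEMA3 (AT2G31250) for the steps common to all tetrapyrroles, SIRB (AT1G50170) for siroheme, CHLM (AT4G25080) for chlorophyll and Z-ISO (AT1G10830) for carotenoids. They were chosen by name, as the probes whose annotation names exactly 1 gene, that gene being 1 of these 4. Earlier results of these data were known when the choice was made. The rule found 4 of the 3439 probes on the array, and 692 of those probes name 1 gene each. All plants were wild-type Arabidopsis thaliana of the Columbia 0 ecotype, grown on Murashige and Skoog (MS) medium, a mineral medium for plant culture. A group of 14 arrays came from plants given 2% sucrose in this medium, and a group of 14 from plants on the untreated medium. The labels give total RNA as the material and name neither an organ, an age nor a light regime, so the tissue could not be checked against a label. Of 10 leaf genes looked for, 1 had a probe of its own (PRK, the phosphoribulokinase of carbon fixation, with signal above the floor on every array), and of 10 root genes none had. PRK was higher on sucrose by 0.96 on the log2 scale after quantile normalization (limma adjusted p = 0.0243), by 0.57 as deposited (limma adjusted p = 0.115) and by 1.19 with arrays centred on their median (limma adjusted p = 0.0285); its part in the results below was not tested.

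Tetrapyrroles are ring-shaped molecules built in the plastid from glutamate carried on its transfer RNA. Glutamyl-tRNA reductase, the enzyme family of HEMA3, performs the first step committed to them, and the path later divides into siroheme, heme and chlorophyll. Siroheme, which carries iron inserted by the sirohydrochlorin ferrochelatase SIRB, is the cofactor of nitrite and sulfite reductase. CHLM adds a methyl group to magnesium protoporphyrin IX, an early step of the chlorophyll branch. Carotenoids come from a separate isoprenoid pathway, in which Z-ISO isomerizes zeta-carotene between the phytoene and zeta-carotene desaturases; they serve in light harvesting and in the protection of the photosystems.

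Within a group, neighbouring replicate numbers (1 and 2, 3 and 4, and so on) gave similar arrays, with r of 0.903 to 0.989 over all probes. For 26 of the 28 arrays this neighbour was the closest array of all, so neighbours were averaged into 7 sets per group. Whether they are duplicates, or whether sets came from different cultures, is not stated in the labels, and the p-values below cover the variation among sets alone, possibly technical. In earlier work on these data 3 sets had stood apart: sucrose set 1 resembled the other group, and no-sucrose sets 1 and 2 were intermediate. Before scaling, the median intensity of the array was 0.163 to 0.213 for sucrose sets 2 to 7. For no-sucrose sets 3 to 7 it was 0.344 to 0.432. It was 0.339 for sucrose set 1, and 0.182 and 0.213 for no-sucrose sets 1 and 2. In this measure all 3 sets thus lay near the remaining sets of the other group. Quantile normalization removes this difference in overall signal, and the log2 fold changes of the 4 genes are therefore also given as deposited and without the 3 sets. These sets were picked for lying away from their group, so leaving them out favours larger differences by construction.

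The comparison asked how the 4 genes differed between plants with and without sucrose. After quantile normalization HEMA3 and Z-ISO were lower on sucrose, by 1.49-fold and 3.37-fold, and SIRB was higher by 1.77-fold. CHLM, with a 1.28-fold higher mean, did not pass the test. Thus 3 of the 4 were called at a limma adjusted p of 0.05, 1 as higher and 2 as lower. Among all 3439 probes 30.0% were called, 17.6% as higher and 12.4% as lower. The median absolute log2 fold change was 0.70 for the 4 genes and 0.47 for all probes, which include probes without signal (11.9% to 17.5% at 0 on an array). Of all probes, 41.7% had a larger absolute log2 fold change than HEMA3, 26.8% than SIRB, 58.0% than CHLM and 3.43% than Z-ISO. Because the 4 genes were chosen with earlier results of these data known, these shares describe them and do not test them. Fewer cells expressing a gene and less of its RNA per cell cannot be told apart in such bulk RNA.

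**Figure D1:**
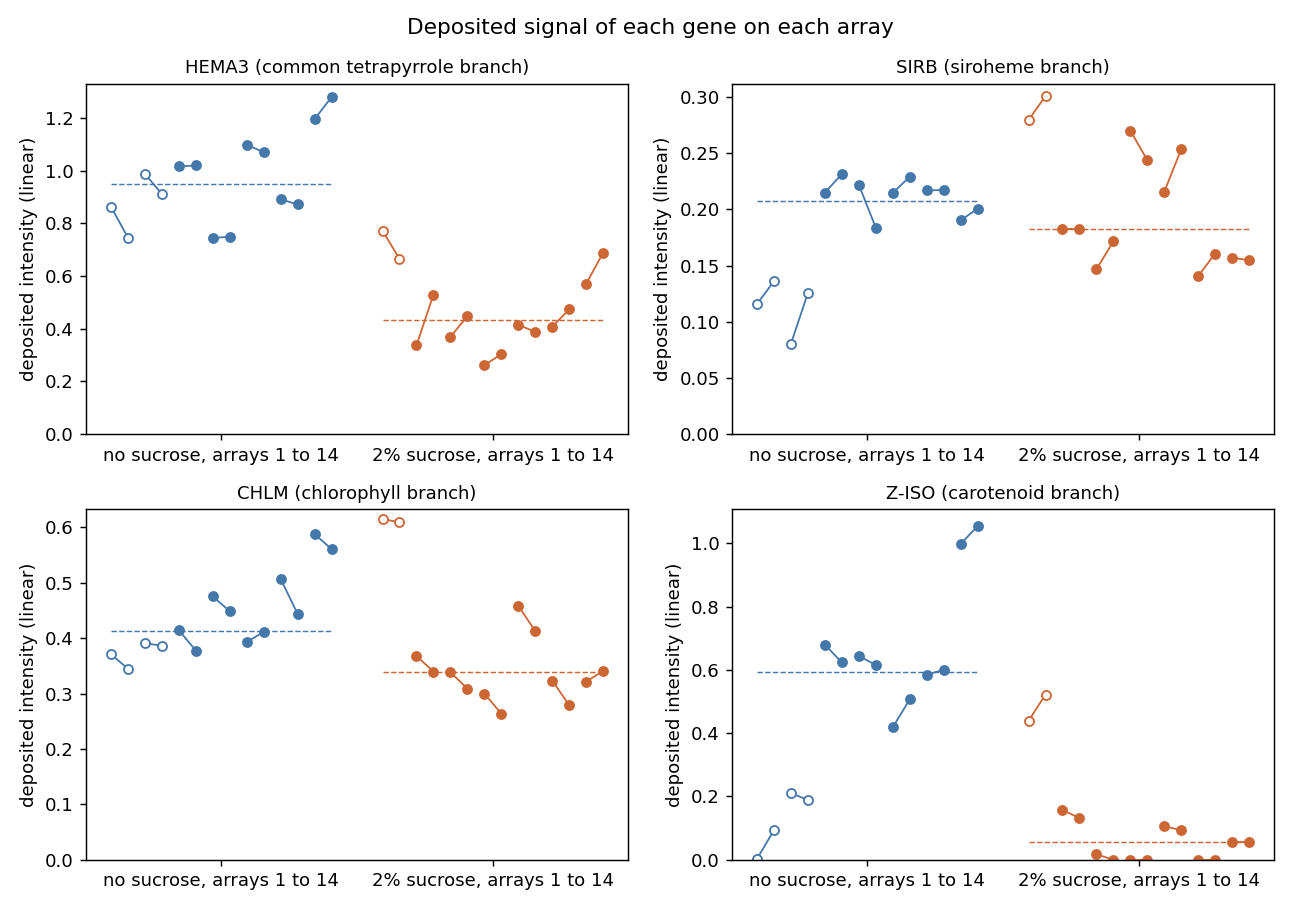
Deposited linear intensity of HEMA3, SIRB, CHLM and Z-ISO on each of the 14 arrays without sucrose (blue) and the 14 with 2% sucrose (orange). Lines join the 2 arrays of a set, dashed lines mark group medians and open circles mark the 3 sets that stood apart. All no-sucrose arrays read 0.745 or more for HEMA3, above every sucrose array but 1, and Z-ISO was at 0 on 5 sucrose arrays.

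HEMA3 encodes a glutamyl-tRNA reductase, and Arabidopsis has further genes of this enzyme, HEMA1 and HEMA2, whose transcripts the probe might also bind. The probe's sequence was not used here, so this was not tested. Its deposited intensity had a lowest value of 0.261, a median of 0.431 and a highest value of 0.773 on the 14 sucrose arrays. Without sucrose these values were 0.745, 0.950 and 1.28. The ranges of single arrays met only at sucrose array 1, at 0.773, and averaged over sets they did not overlap, at 0.282 to 0.719 with sucrose and 0.747 to 1.24 without. Such separation of the deposited values was found in 1.37% of all probes.

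After normalization the mean log2 signal of HEMA3 was -0.89 ± 0.32 on sucrose and -0.31 ± 0.28 on the untreated medium (SD, n = 7 sets per group). This gave a log2 fold change of -0.58 ± 0.16 (SE; 95% confidence interval -0.92 to -0.23; limma adjusted p = 0.0191), and 6 of the 7 sucrose sets lay below the lowest no-sucrose set. The exception was sucrose set 7, at -0.26. An exact two-sided permutation test over the sets gave p = 0.00699. The direction was the same under all 3 scalings, but the size was not: the deposited values gave -1.07 ± 0.19 (SE; limma adjusted p = 0.00503) and centring each array on its median gave -0.45 ± 0.24 (SE; limma adjusted p = 0.128), which ended the call. The call also ended without the 3 sets that stood apart (-0.51; limma adjusted p = 0.0533) and with each array centred by blocks of 48 neighbouring spots (-0.48; limma adjusted p = 0.143).

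SIRB encodes the ferrochelatase that completes siroheme. Its deposited intensity was close in the groups, with a lowest value of 0.141, a median of 0.183 and a highest value of 0.301 on sucrose arrays and 0.0802, 0.208 and 0.232 on the others. The ranges overlapped, and the 4 lowest values without sucrose were those of no-sucrose sets 1 and 2. All 28 values lay above 0.0483, the floor to which low values were raised.

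On the normalized scale SIRB was the 1 gene of the 4 whose sets did not overlap, at -2.37 to -1.36 with sucrose and -3.17 to -2.47 without; 1.95% of all probes separated in this way. The mean was -2.02 ± 0.34 on sucrose and -2.85 ± 0.25 on the untreated medium (SD, n = 7 sets per group), a log2 fold change of 0.83 ± 0.16 (SE; 95% confidence interval 0.49 to 1.16; limma adjusted p = 0.00495). The exact permutation test gave p = 0.000583, the smallest that 7 sets against 7 allow. As deposited, the difference was only 0.16 ± 0.22 on the log2 scale (SE; limma adjusted p = 0.617; exact permutation p = 0.483), so the rise of SIRB was a rise against the other probes of the array. All probes together had a median log2 fold change of -0.31 as deposited, and SIRB lay 0.48 above that median. Without the 3 sets that stood apart the deposited values turned to -0.19 (limma adjusted p = 0.323) beside a median of -0.58 for all probes, while the normalized value was 0.89 (limma adjusted p = 0.00216). Centring by blocks of 48 spots gave 0.43 (limma adjusted p = 0.0676) and ended the call.

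**Figure D2:**
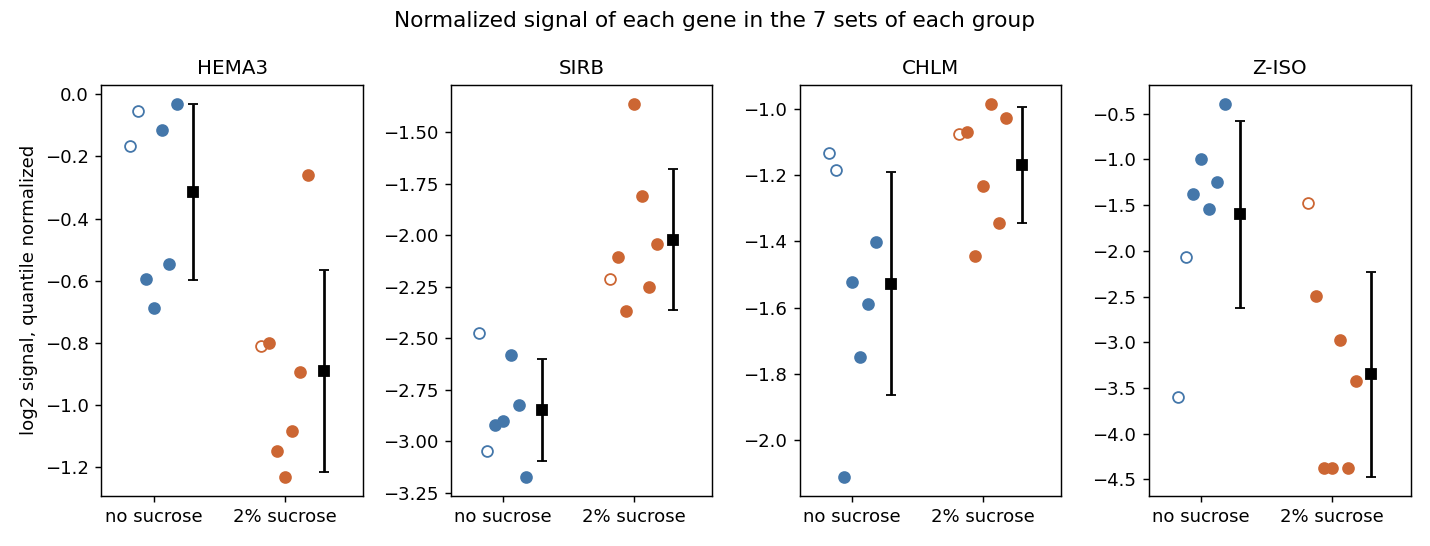
Quantile-normalized log2 signal of each gene in the 7 sets without sucrose (blue) and the 7 with 2% sucrose (orange), with the mean ± SD of the 7 sets as a black square and bar; open circles are the 3 sets that stood apart. The SIRB sets do not overlap, and 3 sucrose sets of Z-ISO lie at the floor of -4.37.

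CHLM encodes the methyltransferase that acts after magnesium chelatase. Its deposited intensity had a lowest value of 0.264, a median of 0.339 and a highest value of 0.615 with sucrose, and 0.345, 0.413 and 0.588 without. Most sucrose arrays thus read lower than the others, while sucrose set 1 held the highest values of all, with a mean intensity of 0.612. Sucrose set 1 was also the sucrose set with the highest overall signal.

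After normalization the order was the opposite. The mean log2 signal of CHLM was -1.17 ± 0.18 on sucrose and -1.53 ± 0.34 on the untreated medium (SD, n = 7 sets per group). Each of the 7 sucrose sets exceeded the mean of the other group, and 4 of them exceeded its highest set. The log2 fold change of 0.36 ± 0.14 (SE; 95% confidence interval 0.06 to 0.66) did not pass over all probes (limma adjusted p = 0.0687), and the exact permutation test of this gene alone gave an unadjusted p = 0.0233. The deposited values gave -0.24 ± 0.17 (SE; limma adjusted p = 0.284), within 0.07 of the median of all probes. Without the 3 sets that stood apart CHLM passed in both directions, higher after normalization (0.49, limma adjusted p = 0.0127) and lower as deposited (-0.45, limma adjusted p = 0.0125). No direction is therefore given for CHLM. It passed on the normalized scale when no-sucrose set 1 (0.43, limma adjusted p = 0.0321) or no-sucrose set 2 (0.42, limma adjusted p = 0.0398) alone was left out.

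Z-ISO, the carotenoid isomerase, had the largest difference of the 4, and 3.43% of all probes had a larger absolute log2 fold change. On the sucrose arrays its deposited intensity had a lowest value of 0, a median of 0.0557 and a highest value of 0.522, and without sucrose these values were 0.00249, 0.593 and 1.05. It was listed at 0 on 5 sucrose arrays and was at or below the floor on 6 sucrose arrays and on 1 no-sucrose array. The groups overlapped through the sets that stood apart. Sucrose set 1 had a mean intensity of 0.480, whereas the other 6 sucrose sets had 0 to 0.144, and no-sucrose sets 1 and 2 had 0.0476 and 0.20, whereas the other 5 had 0.463 to 1.03.

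The mean log2 signal of Z-ISO was -3.35 ± 1.12 on sucrose and -1.60 ± 1.02 on the untreated medium (SD, n = 7 sets per group). The difference on the log2 scale was -1.75 ± 0.56 (SE; 95% confidence interval -2.96 to -0.54; limma adjusted p = 0.0329). All sucrose sets except set 1 lay under the mean of the other group, and the exact permutation test gave p = 0.0140. Z-ISO was lower under all 3 scalings, at -2.16 ± 0.67 as deposited (SE; limma adjusted p = 0.0333) and -1.54 ± 0.43 with arrays centred on the median (SE; limma adjusted p = 0.0142). Both arrays of sucrose sets 3, 4 and 6 were at or below the floor, so the size depends on the floor. With an offset of 0.1 in its place the log2 fold change was -1.30 (limma adjusted p = 0.0264), and with a lower floor, at the 1st percentile of positive values, it was -2.44 (limma adjusted p = 0.0623).

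The call of Z-ISO was lost when any 1 of no-sucrose sets 3 to 7 or of sucrose sets 3, 4, 6 and 7 was left out, with limma adjusted p between 0.0549 and 0.0673 and log2 fold changes from -1.74 to -1.55. Leaving out sucrose set 1 gave a 4.18-fold lower signal on sucrose (limma adjusted p = 0.00664), and without all 3 sets that stood apart the log2 fold change was -2.56 (limma adjusted p = 0.000492).

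**Figure D3:**
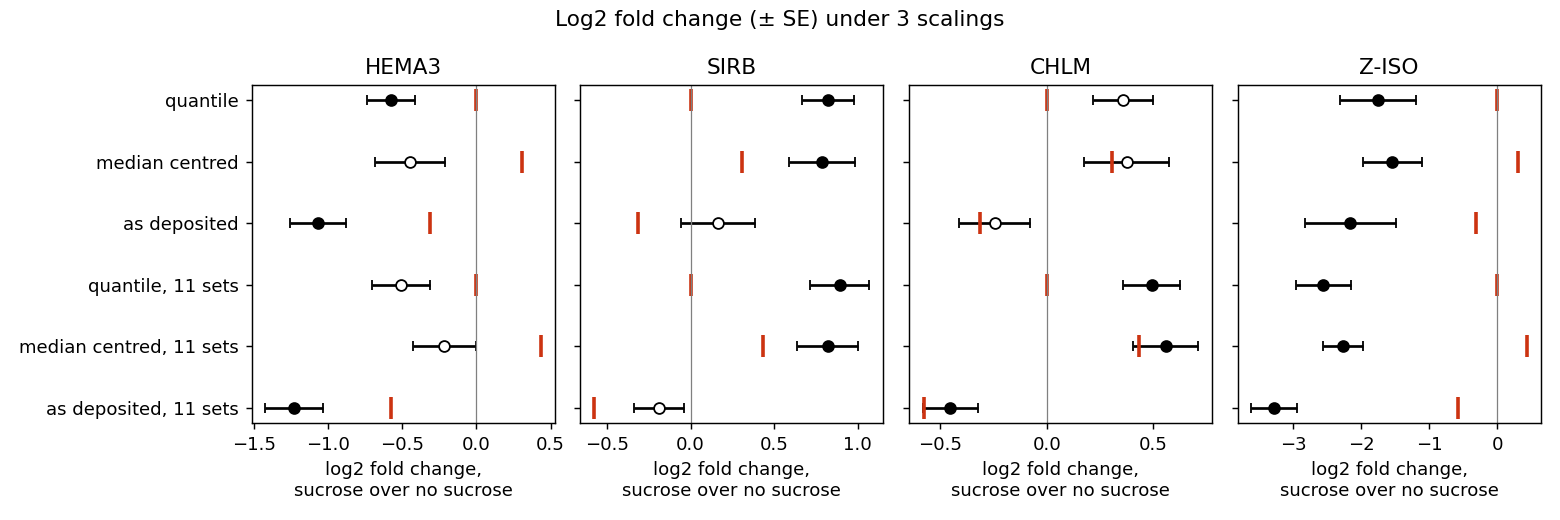
Log2 fold change, sucrose over no sucrose (circle, ± SE), of each gene after quantile normalization, with arrays centred on their median and as deposited, over all 14 sets and over the 11 sets that did not stand apart. Filled circles passed a limma adjusted p of 0.05 and red marks are the median of all probes; HEMA3 and Z-ISO lie below 0 under every setting drawn, whereas CHLM and SIRB do not keep 1 side.

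The scalings also moved the calls over all probes, to 5.50% higher and 21.5% lower as deposited and 31.3% higher and 12.6% lower with arrays centred on the median, and the median of the log2 fold changes over all probes was -0.31 and 0.31 in these. Centring moves all probes by the same amount, so distances from that median are the same in both by construction: -0.76 for HEMA3, 0.48 for SIRB, 0.07 for CHLM and -1.85 for Z-ISO. HEMA3 and Z-ISO thus lay below the median probe and SIRB above it.

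A ratio of 2 genes read on the same array is not changed by a single scaling factor per array, such as median centring, as long as neither is at the floor, which held on every array for HEMA3, SIRB and CHLM. Quantile normalization and centring by blocks of spots do change it. The 6 pairs of the 4 genes were compared on the deposited values, a comparison added after the effect of the scaling had been seen, with p-values from exact permutation over the sets adjusted over the 6 pairs. The pairs share the same 4 genes, so their tests are not independent. The share of other probe pairs that change as much is not given here, so such changes are not shown to be particular to these genes. HEMA3 fell against SIRB, by 1.23 on the log2 scale (± 0.29, SE), a 2.35-fold change of the ratio, with 6 of 7 sucrose sets below every no-sucrose set (exact permutation, adjusted p = 0.00524). It fell against CHLM by 0.83 (± 0.16, SE), or 1.77-fold, again with 6 of 7 sucrose sets below every no-sucrose set (exact permutation, adjusted p = 0.00524). Without the 3 sets that stood apart these changes were -1.04 and -0.78 (exact permutation, adjusted p = 0.0130 for both), after quantile normalization -1.40 and -0.94 (adjusted p = 0.00175 for both, exact permutation), and with centring by blocks of 48 spots -0.91 and -0.75 (exact permutation, adjusted p = 0.0326 and 0.0210). The signal of the HEMA3 probe thus changed unequally with that of SIRB and with that of CHLM. A ratio does not show which of its 2 genes changed. HEMA3 alone does not stand for the common path.

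The ratio of SIRB to CHLM was higher on sucrose by 0.41 (± 0.20, SE), with overlapping sets and an adjusted p of 0.0769 in the exact permutation test. An unequal change of the SIRB and CHLM signals was therefore not shown. Z-ISO fell against both, with SIRB over Z-ISO higher by 2.32 (± 0.55, SE; exact permutation, adjusted p = 0.00583) and CHLM over Z-ISO higher by 1.92 (± 0.56, SE; exact permutation, adjusted p = 0.0131). For both ratios each of the 7 sucrose sets exceeded the mean of the other group. Without the 3 sets that stood apart they were larger, at 3.09 (8.50-fold) and 2.82 (7.08-fold; exact permutation, adjusted p = 0.00649 for both). HEMA3 over Z-ISO was higher by 1.09 (± 0.61, SE) and did not pass (exact permutation, adjusted p = 0.0997). It passed without no-sucrose set 1 (1.48; exact permutation, adjusted p = 0.0238) or without sucrose set 1 (1.39; exact permutation, adjusted p = 0.0497), and without the 3 sets that stood apart it was 2.05 (exact permutation, adjusted p = 0.00866). SIRB over CHLM was 0.26 without the 3 sets (exact permutation, adjusted p = 0.262) and passed after quantile normalization (0.47; exact permutation, adjusted p = 0.0406), without no-sucrose set 3 (0.49; exact permutation, adjusted p = 0.0273) or without no-sucrose set 5 (0.48; exact permutation, adjusted p = 0.0350). The floor touches the 3 ratios to Z-ISO.

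**Figure D4:**
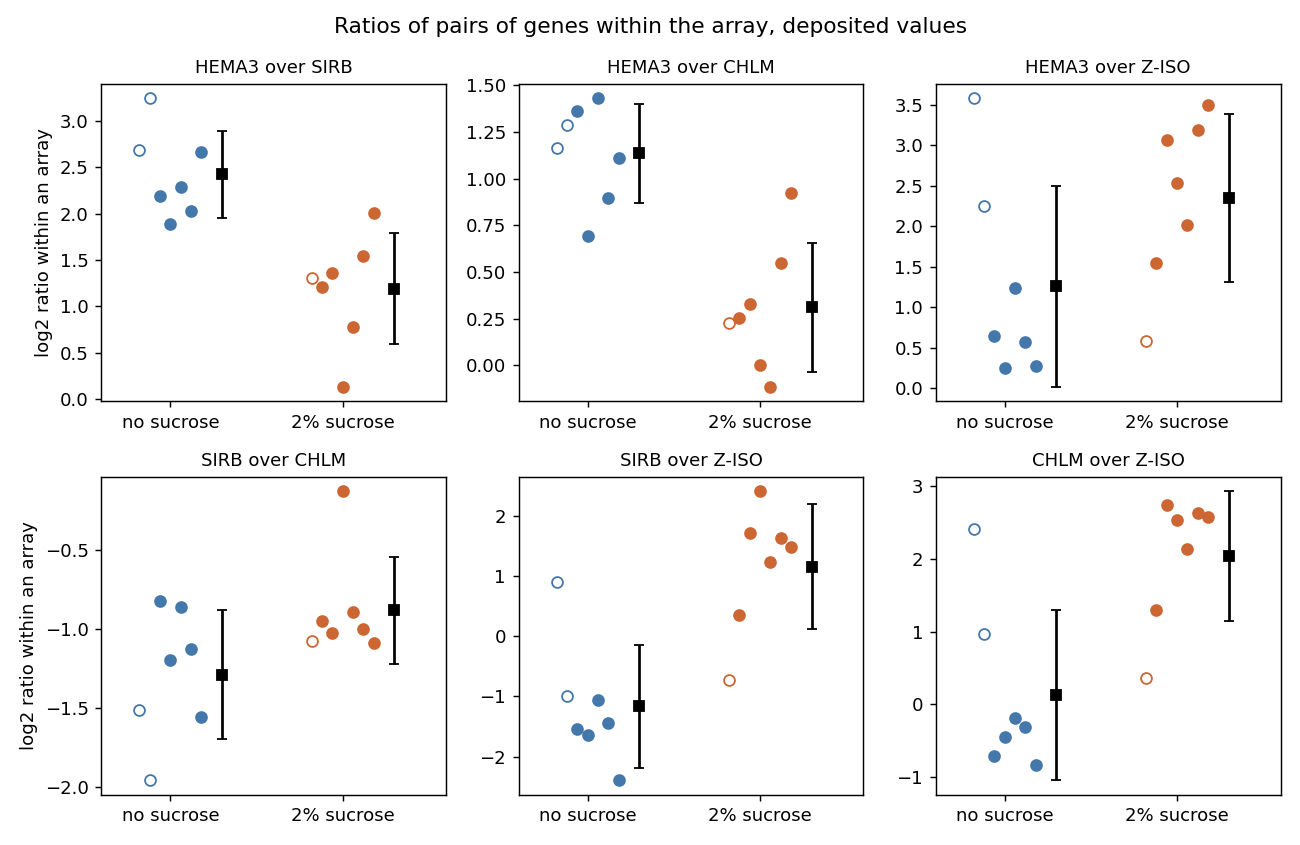
Log2 ratio of each pair of genes within the array, from deposited values raised to the floor, in the 7 sets without sucrose (blue) and with 2% sucrose (orange), with mean ± SD as a black square and bar; open circles are the 3 sets that stood apart. HEMA3 over SIRB and HEMA3 over CHLM are lower on sucrose with 1 sucrose set in the range of the other group, and the ratios to Z-ISO overlap through the open circles.

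Between the 2 arrays of a set the SD of the normalized log2 signal was 0.09 for CHLM, 0.18 for HEMA3 and for SIRB, and 0.31 for Z-ISO. The value for Z-ISO came mostly from no-sucrose set 1, whose arrays were at -4.37, the floor, and at -2.82. In sucrose sets 3, 4 and 6 both Z-ISO arrays were at the floor and so could not differ. These SDs therefore do not rank how well the 4 genes were measured. The spread between sets of a group was larger, from 0.18 for CHLM with sucrose to 1.12 for Z-ISO with sucrose.

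Few other genes of these pathways could be read. Of 81 genes listed for tetrapyrrole, siroheme, chlorophyll, heme, chlorophyll breakdown, carotenoid and isoprenoid precursor steps, 6 had a probe naming only that gene, the 4 above and 2 more, and 5 others occur only on probes naming several genes. Of the 6, 1 was higher, 2 were lower and 3 did not pass, beside 17.6% higher and 12.4% lower among all probes. Those that passed were SIRB, HEMA3 and Z-ISO, already described above. AT1G74470, the geranylgeranyl reductase that supplies the phytol tail of chlorophyll, had a bright signal, with a lowest, median and highest intensity of 1.42, 2.80 and 4.41 with sucrose and 1.90, 3.27 and 5.21 without. Its groups overlapped, and its log2 fold change was -0.19 ± 0.18 (SE; 95% confidence interval -0.57 to 0.19; limma adjusted p = 0.434). As deposited it was -0.37 (limma adjusted p = 0.277), and with arrays centred on the median it turned to 0.25 (limma adjusted p = 0.548). AT5G63290, listed with the common tetrapyrrole genes, was at or below the floor on all 28 arrays and listed at 0 on 27, so no fold is given. With arrays centred on the median it was nevertheless called higher (limma adjusted p = 0.0442), a call on a probe without signal that the other 2 scalings did not give. No heme, chlorophyll breakdown or isoprenoid precursor gene had a probe of its own.

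The genes with the most similar pattern were sought among 539 or 540 other probes of 1 gene that were above the floor in at least 12 of the 14 sets, by Pearson's r of the normalized log2 signal over the 14 sets. These values include the difference between the groups and serve as a description only. For HEMA3 they were AT4G27250 (r = 0.88), AT1G73470 (0.82) and AT1G78620 (0.81), all lower on sucrose, with log2 fold changes of -1.02, -0.86 and -1.16. For SIRB they were AT5G19540 (r = 0.86), AT1G27610 (0.84) and AT5G61470 (0.84), all higher, at 1.01, 0.65 and 1.06. CHLM was most like AT4G25290 (r = 0.85), AT3G25410 (0.78) and AT2G39100 (0.78), of which the first and the second passed the test as higher (0.60 and 1.05) and the last did not (0.56; limma adjusted p = 0.0788). Z-ISO was most like AT5G24690 (r = 0.93), AT2G48090 (0.92) and AT1G22700 (0.92), of which AT5G24690 passed as lower (-1.59; limma adjusted p = 0.0217).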

How the data were processed

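The deposited table held 1 linear intensity per probe and array, never below 0; how the authors corrected the background and normalized these values is not given in the sources used here. Here, intensities under the 5th percentile of positive values (0.0483) were set to it, and log2 values were quantile normalized between arrays. Consecutive arrays were averaged into 7 sets per group, a choice taken from earlier work on these data. The test was the two-sided moderated test of limma 3.58.1 in R 4.3.3, Benjamini-Hochberg adjusted across the 3439 probes and called at 0.05. It was also run on simulated sets with independent noise for each probe. These had no set standing apart and no shift in overall signal, so they do not bear on calls that depend on either. The members, gene lists and settings were chosen with earlier results of these data known. Named were the 4 members, all list genes with a probe of 1 gene, and the 3 most similar genes per member. Gene names came from the platform annotation, matched by gene identifier to the RefSeq table of TAIR10.1; no coordinates or sequences were used. Deviations of same-numbered sets from their group means correlated at -0.52 to 0.13, so set numbers were not taken to pair samples. The number of arrays limits the precision.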

Additional observations from a re-analysis of the deposited data

Results flagged for a closer look

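In 2 of 20 groups of 7 set values 1 set lay far from the others by Dixon's test; chance gives about 1 in 20 such groups, and the groups share genes and sets. The log2 ratio of SIRB to CHLM was -0.13 in sucrose set 4, where the other sucrose sets lay between -1.09 and -0.89 (gap over range 0.798). The log2 ratio of SIRB to Z-ISO was 0.91 in no-sucrose set 1, and the remaining sets of that group ran from -2.39 to -0.99 (gap over range 0.575).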

How the results depend on the processing

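Over 15 other settings, HEMA3 was lower and Z-ISO was lower in all. HEMA3 was not called with median centring (-0.45), with centring by blocks of 48 spots (-0.48), without the 3 sets that stood apart (-0.51), or without them and with median centring (-0.22). SIRB was not called as deposited (0.16) or with centring by blocks (0.43), and turned to -0.19 as deposited without the 3 sets. CHLM turned to -0.24 as deposited and to -0.45 as deposited without the 3 sets; it was called at 0.36 with 28 arrays as separate samples, with the set as a random block and with the replicate number as a block on 28 arrays, at 0.41 with array weights, at 0.49 without the 3 sets and at 0.56 without them and with median centring. Z-ISO was not called with the floor at the 1st percentile (-2.44) or with the set number as a replicate block (-1.75). Why the calls moved with blocks of spots or with weights was not tested. Of all probes, 1033 passed; 1710 did with 28 arrays as separate samples, 416 with the set number as a replicate block, 1611 with the replicate number as a block on 28 arrays, 1842 with array weights, 1657 without the 3 sets, 1921 without them as deposited and 2284 without them with median centring. The same-numbered sets were not paired by the labels or by their values (1 of 7 correlations above 0.1). Leaving out 1 set at a time gave 764 to 1431 probes, -0.68 to -0.52 for HEMA3, 0.72 to 0.89 for SIRB, 0.26 to 0.43 for CHLM and -2.08 to -1.55 for Z-ISO. With sign flips within set numbers as a replicate block, SIRB over Z-ISO and CHLM over Z-ISO lost their calls (exact test, adjusted p = 0.0703 for both), where the smallest p of the 128 sign patterns is 0.0156. The settings without the 3 sets combined with another scaling, and all those of the pairs, were added after the data were seen. Signal near the floor limits what can be said of Z-ISO.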
